A study of Drosophila melanogaster with 4 samples.

Results

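Of the 244 genes that the authors' deposited table lists as changed when the immune deficiency (IMD) pathway was switched on in the larval airway of Drosophila melanogaster, 6 encode glutathione transferases or cytochrome P450 enzymes. They were taken as every row whose CG number is the locus of a gene with a current symbol starting with Gst, or with Cyp and a digit. The 4 transferase genes are GstE1, GstE6, GstE7 and GstT3, and the 2 P450 genes are Cyp6a20 and Cyp312a1. Current symbols came from RefSeq genes of assembly Release 6, to which all 6 were matched by locus tag.

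The study compared tracheae of third-instar larvae, about 10 days old and raised at 22 °C, on two-colour arrays that hold 2 RNA samples each. One sample was the F1 generation of the driver strain NP2610 crossed with UAS-PGRP-LE, in which GAL4 turns on PGRP-LE, a receptor for bacterial peptidoglycan at the head of the IMD pathway. The other was the driver strain NP2610 alone, so both carry the driver. They differ in the UAS strain as well as in PGRP-LE, and the dose of the driver may differ between an F1 and its parent strain. These differences cannot be told apart. Each RNA came from 20 pooled pairs of tracheae, and the titles name 4 arrays as 2 biological and 2 technical replicates, called 1a, 1b, 2a and 2b here, where a is the biological and b the technical replicate of the same number. In bulk tissue, a change in RNA per cell and a change in the mix of cells cannot be told apart.

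Cytochrome P450 enzymes are haem proteins that oxidise small fat-soluble molecules, among them hormones, plant toxins and insecticides. Glutathione transferases join the tripeptide glutathione to reactive compounds, which makes them more soluble and easier to export, and some also reduce lipid peroxides formed in oxidative stress. Insects have expanded the delta and epsilon classes of transferases, while the theta class, to which GstT3 belongs, is shared with mammals. The airway lining is in contact with inhaled compounds and oxygen, and both enzyme families are often followed as a sign of stress metabolism.

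Of the 6 genes, 4 were higher and 2 were lower in the authors' deposited table, where 187 of all 244 genes (76.6%) were higher. The table holds genes the authors chose for their change in this comparison, so these directions and sizes describe the genes and test nothing. "Higher" means more RNA in the PGRP-LE cross: the file does not state the numerator, and this reading is likely because its hybridisation group is named after that cross. Read the other way, 57 of the 244 genes and 2 of the 6 would be higher. The 12 listed antimicrobial peptide genes and other IMD targets, all higher in the first reading, would then all be lower. The median log2 ratio was 0.90 for the 6 genes and 0.82 for all 244 in the authors' deposited table. Their coefficient of variation, the SD over spots divided by the size of the mean, had a median of 0.415 against 0.585 for all genes in the authors' deposited table.

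The 3 epsilon-class genes were higher, to different extents. In the authors' deposited table GstE6 had a mean log2 ratio of 1.39 (SD 0.33, 8 spots), a 2.62-fold difference that placed it 31st among the higher genes. GstE7 followed at 1.09 (SD 0.94, 8 spots, authors' deposited table), so its spread over spots was nearly as large as its mean. GstE1 had a mean of 0.71 (SD 0.33, 8 spots, authors' deposited table), a 1.64-fold difference. The file's own annotation links GstE1 to the response to oxidative stress, and GstE6 and GstE7 to oxygen and reactive oxygen species metabolism. The theta-class gene GstT3 was lower, with a mean of -0.70 (SD 0.22, 8 spots, authors' deposited table) and the smallest SD of the 6. GstE1 and GstT3 lay closest to the edges of the authors' deposited table, whose smallest positive mean was 0.59 and whose negative mean nearest to 0 was -0.65.

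The 2 P450 genes went in opposite directions. Cyp6a20, known in adult flies for its link to male aggression, had a mean log2 ratio of 1.31 (SD 0.55, 6 spots, authors' deposited table), 0.08 below that of GstE6. Cyp312a1 had one of -1.19 (SD 0.49, 6 spots, authors' deposited table), a 2.28-fold difference and the 7th lowest of the 244 genes. The P450 genes therefore lay 2.50 apart on the log2 scale and the transferases spanned 2.09 in the authors' deposited table. With a mean log2 ratio of 0.62 for the 4 transferases and 0.06 for the 2 P450 genes in the authors' deposited table, the difference of 0.56 between the families was smaller than the range within either. Both directions occurred in both families.

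**Figure D1:**
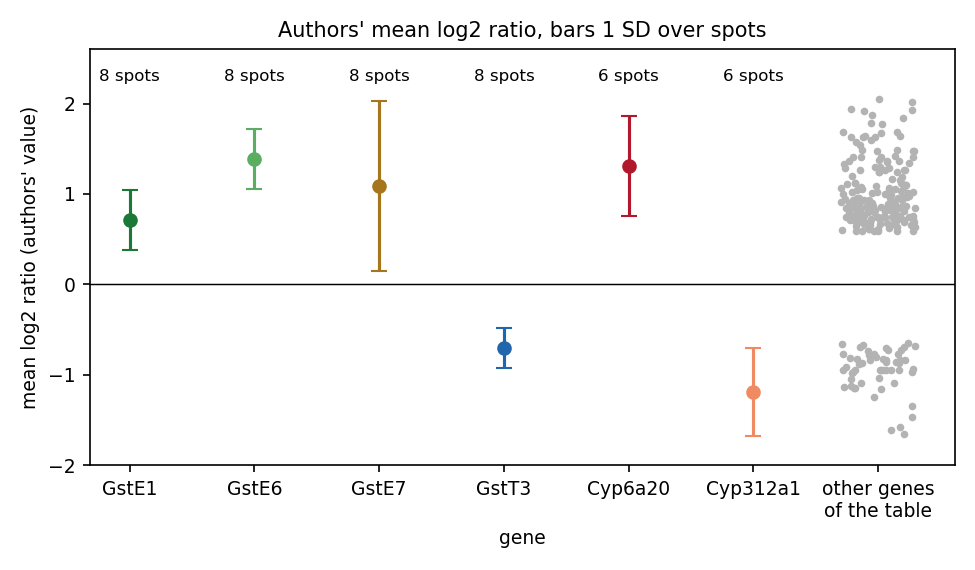
Mean log2 ratio of each gene in the authors' deposited table (vertical axis), with bars of 1 authors' SD over spots and the number of valid spots above; grey points are the other 238 genes. GstE1, GstE6, GstE7 and Cyp6a20 lie above 0 and GstT3 and Cyp312a1 below it, and the bar of GstE7 reaches from 0.15 to 2.03.

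The array table of the series gives log2 ratios for 32448 numbered spots on each of the 4 arrays and no gene names. Taken in side-by-side pairs, its 16224 pairs include, for each of the 134 genes with 8 valid spots in the authors' deposited table, at least 1 pair whose 8 values return the deposited mean and SD to within 0.01. With the sign of any array turned, or each array centred on its median, 6 to 53 of the 134 genes found such a pair in the 31 settings tried. The deposited means of the 8-spot genes thus match averages of these values with no array turned and none centred. Exactly 1 pair matched each of the 4 transferase genes. The array values below are those of that pair, and the link between pair and gene rests on this arithmetic alone. For the P450 genes, with 6 valid spots, 3 pairs matched Cyp6a20 and 2 matched Cyp312a1, so no array values are given for them. The labels give the cross Cy3 on arrays 1b and 2a and Cy5 on 2b, and for 1a they give Cy5 to both channels, so the orientation of array 1a is not settled by them. Values are given with array 1a as deposited, and where its sign decides a result the value with 1a turned stands beside it.

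The pair with the mean and SD of GstE6 was above 1 on all 4 arrays. Its log2 ratio was 1.38 on array 1a, 1.87 on 1b, 1.18 on 2a and 1.15 on 2b. The biological replicates averaged 1.62 and 1.16, a mean of 1.39 ± 0.33 (SD, n = 2), or 0.70 with array 1a turned, and both spots of the pair lay within 0.33 of each other on every array. As deposited, its lowest array was above the highest array of the GstE1 pair, at 1.15 against 1.07. With each array centred on its median, its lowest array was at 0.38 and the highest of the GstE1 pair at 1.45. With array 1a turned, these were -1.375 and 0.965.

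The pair of GstE7 was high on the arrays of replicate 1 and near 0 on those of replicate 2. Its log2 ratio was 2.20 on array 1a, 1.69 on 1b, 0.33 on 2a and 0.13 on 2b. The replicates averaged 1.94 and 0.23, which is a 3.84-fold difference in one and a 1.17-fold difference in the other (mean 1.09 ± 1.21 SD, n = 2). Both spots agreed to within 0.19 on every array, so the wide deposited SD of GstE7 lay between arrays and not between spots. With array 1a turned, the spread lay within replicate 1, between -2.20 and 1.69, and the mean was -0.015. Among the 110 genes of the authors' deposited table with exactly 1 matching pair, GstE7 ranked 107th from the smallest in its gap between replicates as deposited, 1.72 against a median of 0.58.

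The pair of GstE1 was positive throughout, with 1.07 on array 1a, 0.97 on 1b, 0.36 on 2a and 0.45 on 2b. Its replicates averaged 1.02 and 0.40 (mean 0.71 ± 0.43 SD, n = 2), so replicate 1 was again the higher one as deposited. With array 1a turned, replicate 1 averaged -0.05 and the mean was 0.18. Its spots agreed to within 0.09 on every array, the smallest such gap of the 110 matched genes. The pair of GstT3 was negative throughout, with -0.42 on array 1a, -0.61 on 1b, -0.91 on 2a and -0.88 on 2b. Its replicates averaged -0.51 and -0.89 (mean -0.70 ± 0.27 SD, n = 2), and here replicate 2 was farther from 0. With array 1a turned its mean was -0.50.

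**Figure D2:**
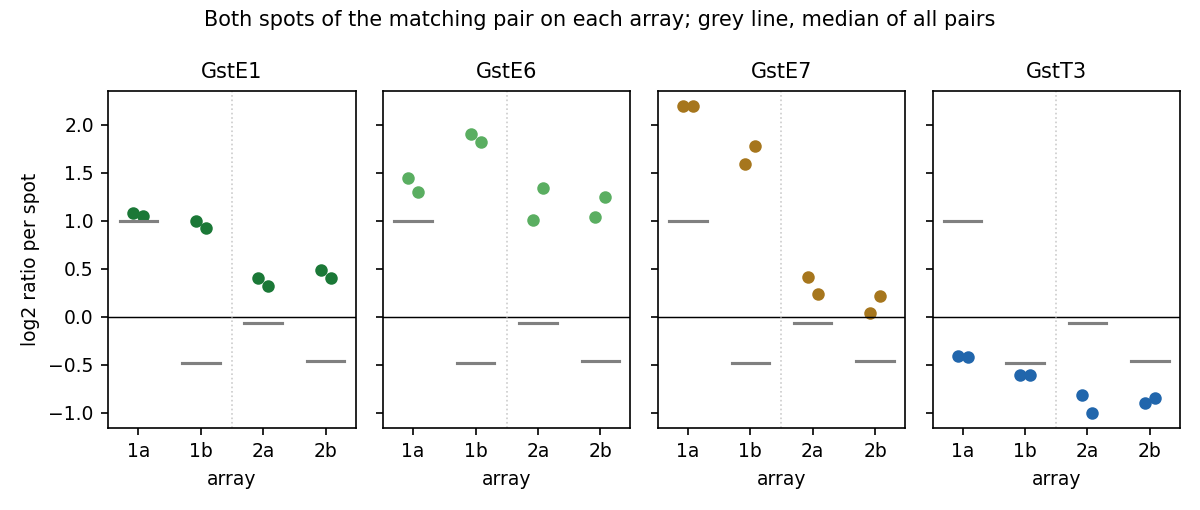
Log2 ratio (vertical axis) of both spots of the matching pair on arrays 1a, 1b, 2a and 2b for each transferase gene, with the median of all 16224 pairs on each array as a grey line. GstE6 stays above 1 on every array, GstE7 drops from 2.20 and 1.69 to 0.33 and 0.13 between replicates, and on array 1a the GstE1 spots lie close to the grey line.

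The arrays themselves differed in their typical ratio, which bears on these values because the deposited ratios were not centred. The median over all pairs was 1.0 on array 1a, -0.49 on 1b, -0.07 on 2a and -0.46 on 2b. On array 1a the pairs of GstE1 and GstE6 therefore stood 0.07 and 0.38 above the typical pair, against 1.45 and 2.35 on 1b. After centring, GstE6 averaged 1.36 in replicate 1 and 1.43 in replicate 2, GstE1 averaged 0.76 and 0.67, GstE7 averaged 1.69 and 0.49, and GstT3 averaged -0.77 and -0.63. Centring thus narrowed the gap between replicates for all 4 pairs, and GstE7 kept the widest. Within replicate 1, however, it moved arrays 1a and 1b farther apart for all 4 pairs. On these arrays GstE7 stood at 1.20 and 2.17 after centring, and GstT3 at -1.415 and -0.125. The centred means of replicate 1 are therefore averages of arrays that agreed less than as deposited. The mean over the 4 arrays moved by less than 0.01. Centring takes the same 4 medians from every pair on the arrays. The shift in the mean, in the difference between replicates and in that between arrays 1a and 1b is therefore the same for every pair. The narrowed and widened gaps thus describe the arrays and are no trait of these 4 genes.

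All 4 transferase pairs kept 1 sign on all 4 arrays, both as deposited and after centring. Of all 16224 pairs, 8.62% did so as deposited and 11.4% after centring, and of the 110 matched genes 93.6% and 61.8%. With array 1a turned 0 of the 4 did, against 23.1% of all pairs. That 0 was fixed in advance, because turning 1 array must break a sign shared by all 4. With a running median over 50 pairs on each side removed 2 of the 4 did. The share of all pairs was not computed in that setting, so nothing is read from the 2 of 4. The genes were selected for agreement over these arrays as deposited, so nothing is read from the 4 of 4 or the 0 of 4. At a log2 size of 0.59, about 1.5-fold, in both replicates, 1 of the 4 pairs passed as deposited, that of GstE6, against 8.19% of all pairs. After centring 3 of the 4 passed, those of GstE1, GstE6 and GstT3, against 8.44% of all pairs. Their centred values in replicate 1 average arrays 1a and 1b, which centring moved apart.

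Agreement between arrays over all pairs was low. These pairs, which also gave the shares of all pairs above, were not filtered for spot quality. The largest gap between both spots of a pair had a median of 1.73 over all pairs. It was 0.37 over the 110 matched genes, which the authors had selected. The part of spot quality in the correlations and shares was not tested. Pearson correlations over the 16224 pairs, which are not independent replicates, ran from -0.134 between arrays 1a and 1b to 0.156 between 1b and 2b. Between arrays 2a and 2b, which share a replicate number, the correlation was 0.009. Both spots of a pair were more alike than neighbouring spots of different pairs on each array, with correlations of 0.307 to 0.555 against 0.181 to 0.302. A limma fit over all pairs, with the arrays of a replicate averaged first, called 0 pairs higher and 0 lower at an adjusted p of 0.05. At an unadjusted p of 0.05 it called 580 (3.57%), that of GstE6 among them (limma, unadjusted p = 0.0213, adjusted p = 1). The authors listed GstE6 for its change in this same comparison, so its p is a description and nothing is read from it.

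**Figure D3:**
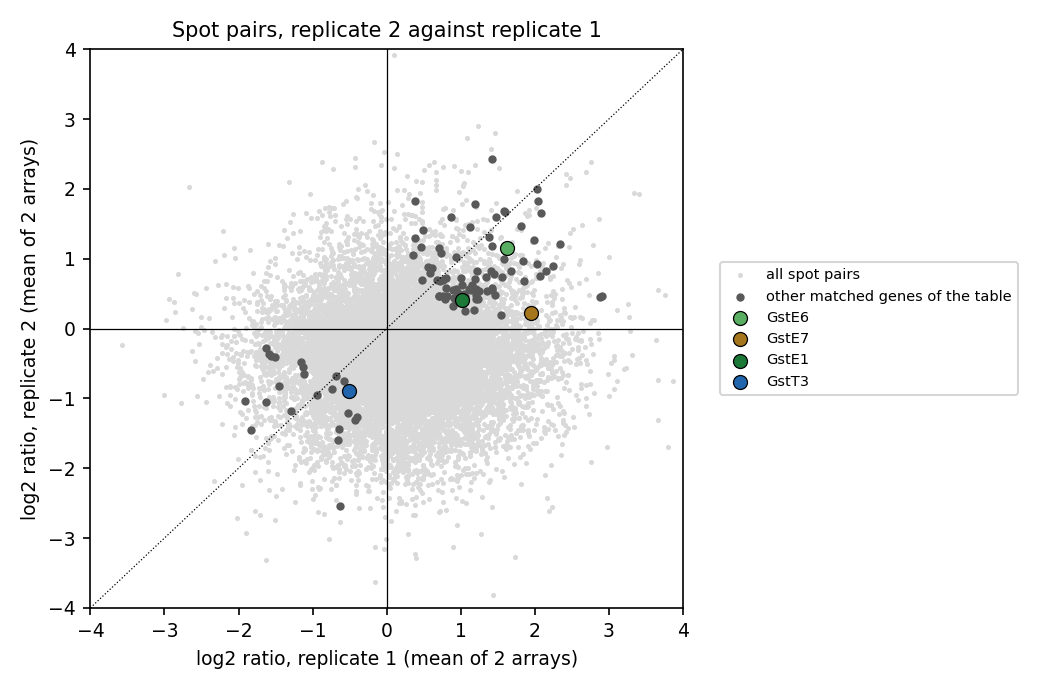
Log2 ratio of each of the 16224 spot pairs in replicate 2 (vertical axis) against replicate 1 (horizontal axis), each the mean of 2 arrays; dark points are the other matched genes of the deposited table and coloured points the 4 transferase pairs. GstE6 at 1.62 and 1.16 lies nearest the dotted line of equal ratios among the higher transferases, while GstE7 at 1.94 and 0.23 lies near the horizontal axis.

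Within arrays, the epsilon-class genes were compared with each other in pairs. As deposited, GstE6 exceeded GstE1 on all 4 arrays, by 0.61 in replicate 1 and 0.76 in replicate 2 (mean difference 0.68 ± 0.11 SD, n = 2, two-sided exact sign-flip permutation p = 0.5, the smallest that 2 replicates allow). With array 1a turned it did so on 3 of 4 arrays, with 0.30 in replicate 1 and a mean of 0.53. The order of GstE6 and GstE7 changed between replicates: GstE6 minus GstE7 was -0.32 in replicate 1 and 0.93 in replicate 2, a mean difference of 0.31 ± 0.89 (SD, n = 2, exact sign-flip permutation p = 1). With array 1a turned GstE6 was above GstE7 in both, by 0.50 and 0.93. GstE7 minus GstE1 also changed sign, from 0.93 in replicate 1 to -0.18 in replicate 2 (mean 0.38 ± 0.78 SD, n = 2, exact sign-flip permutation p = 1), and with array 1a turned its mean was -0.19. The 3 epsilon-class genes together exceeded GstT3 by 2.04 and 1.49 in the replicates, with the difference above 0 on 4 of 4 arrays (mean 1.76 ± 0.39 SD, n = 2, exact sign-flip permutation p = 0.5), or on 3 of 4 with a mean of 0.78 with array 1a turned. As deposited, each p was 1 when adjusted over these 4 comparisons. The genes' selection fixed the direction of the last comparison, which is a description.

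The epsilon-class genes are neighbours in the genome. By gene order in the RefSeq table, 10 GstE genes lie in 1 run on chromosome arm 2R, from GstE10 and GstE1 to GstE9, and the gene after GstE9 is imd, which names the pathway. Of those 10, 3 were in the authors' deposited table: GstE6 and GstE7 are adjacent, and GstE1 lies 7 places before GstE6. The genes GstE2, GstE3, GstE4, GstE5, GstE8, GstE9 and GstE10 of the same run were not in the table. Cyp6a20 lies in a run of 9 P450 genes on 2R, between Cyp6a9 and Cyp6a21, and was the only one of them in the table. GstT3 on the X chromosome and Cyp312a1 on 3L had none of the 5 genes on either side in the table. Transferases and P450 genes of 1 run are similar in sequence, and cross-hybridisation between them was not tested.

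Most of both families was outside the authors' deposited table, which says nothing about the level of those genes. The RefSeq table names 36 glutathione transferases and 87 P450 genes, of which 4 and 2 were listed. None of the 35 UDP-glycosyltransferase genes, which attach sugars to the products of P450 enzymes, was listed. Neither was any other of the 61 genes in a wider detoxification list that includes them. Lists of antioxidant enzymes and of regulators around CncC and Keap1, the fly's sensor of oxidative and xenobiotic stress, also had 0 genes in the table. RefSeq held 14 of the 20 antioxidant symbols and all 12 of the regulators, and symbols that it did not hold could not be looked up. For scale, the whole table listed 244 genes and each array held 16224 spot pairs. Counts differed between lists, with 12 of 29 antimicrobial peptide genes and other IMD targets in the table. No shortage or excess is read from these counts.

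Some genes that supply or use the same cofactors were listed. Men, which encodes malic enzyme, a source of NADPH for glutathione recycling, had a mean log2 ratio of 1.63 (SD 0.36, 8 spots, authors' deposited table), above all 6 genes, and was the only gene there of the 13 that RefSeq held of 17 listed for glutathione synthesis and recycling. Of 23 stress-response genes the authors' deposited table held the small heat shock genes Hsp23, at 1.27, and Hsp26, at -0.91, on opposite sides of 0 like the P450 genes. By the file's own annotation, "response to toxin" was given to 4 genes of the authors' deposited table, all transferases, and "microsome" to 2 genes, both P450 genes. The term "defense response" was given to 13 genes, the 4 transferases and AttC among them. Electron transport was given to both P450 genes and to Grx3, a glutaredoxin-like gene with a mean of 0.76 (SD 0.32, 8 spots, authors' deposited table), which was picked after its value was seen.

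Beside the immune genes, the transferases covered part of the same range. Of 29 antimicrobial peptide genes and other IMD targets, 12 were in the authors' deposited table, all higher, from 0.86 in DptB to 2.02 in AttC. GstE6 at 1.39 and Cyp6a20 at 1.31 lay between Listericin at 1.48 and DptA at 1.20 in the authors' deposited table, and GstE1 at 0.71 lay below all 12. Of the 8 lists of cell type markers, the airway list had 0 genes in the table, so the tissue label could not be checked from it. The other marker lists held 7 of its genes, of which 3 were higher and 4 lower. The higher ones were the blood cell genes NimB2 (0.80) and atilla (0.74) and the fat body gene Tsf1 (0.70), all by the authors' deposited table. The lower ones were Jon99Fi of the gut (-1.58), Mf of muscle (-1.09), fne of neurons (-0.95) and Lsp2 of the fat body (-0.86), again by the authors' deposited table. The part of other cells in the ratios of the 6 genes was not tested.

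The genes whose array pattern was most like that of a transferase came from other families. Likeness was the root mean square difference of the log2 ratio over the 4 arrays, among the other 109 matched genes. The nearest to GstE1 was CG11975 at 0.08, with 1.08, 0.89, 0.45 and 0.35 on arrays 1a, 1b, 2a and 2b. The nearest to GstE6 was Cont, which encodes the septate junction protein Contactin, at 0.24, and the nearest to GstE7 was CG17029 at 0.35. The nearest to GstT3 was TwdlT, a cuticle protein gene, at 0.12. The 4 arrays share the same 2 kinds of RNA, so these distances are descriptions of the arrays.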

How the data were processed

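Values came from 2 deposited files. For each selected gene the first holds a mean log2 ratio, its SD (log2), the number of valid spots and a coefficient of variation (a ratio of SD to mean), all computed by the authors, per the file headers. Per the series' design text, genes were chosen from SAM and GeneTraffic output. The deposited value table gives a log2 ratio per spot. For background correction, normalization and spot filters the sources used here give no method.

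Side-by-side spots were averaged, and pairs were matched to genes by mean and SD with a tolerance of 0.01. The value table names no spot, so gene lists were counted in the authors' table alone. Arrays of a replicate number were averaged. R 4.3.3 and limma 3.58.1 fitted an intercept over 16224 pairs with Benjamini-Hochberg adjustment, tested on simulated data, and Python 3.11.15, numpy 2.4.6 and pandas 2.3.3 did the rest. Named genes were the 6 genes, listed genes in the table and the nearest gene in pattern. Of the 244 identifiers, 227 matched RefSeq by locus tag and 13 by an older identifier. Genes and lists were chosen with earlier results of these data known. The number of arrays limits the precision, and p-values measure only the spread between these samples.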

Additional observations from a re-analysis of the deposited data

How the results depend on the processing

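The dye labels of array 1a conflict. With that array turned, an alternative chosen after seeing the data for single genes and their differences, the mean log2 ratio fell from 1.39 to 0.70 for GstE6 and from 0.71 to 0.18 for GstE1, turned from 1.09 to -0.015 for GstE7 and stood at -0.50 for GstT3. The mean difference went to 0.53 for GstE6 minus GstE1, to -0.19 for GstE7 minus GstE1 and to 0.78 for the epsilon class minus GstT3. With every array turned the values were -1.39 for GstE6, -1.09 for GstE7, -0.71 for GstE1 and 0.70 for GstT3, and 2 of the 6 genes were higher and 4 lower in the authors' deposited table. With at least 8 valid spots 3 of the 6 genes remained higher and 1 lower. The share among all genes of the authors' deposited table with as many spots was not computed, so nothing is read from this count. Leaving out a replicate gave 1.16 to 1.62 for GstE6, 0.23 to 1.94 for GstE7, 0.40 to 1.02 for GstE1 and -0.89 to -0.51 for GstT3. It gave 0.61 to 0.76 for GstE6 minus GstE1, -0.32 to 0.93 for GstE6 minus GstE7, -0.18 to 0.93 for GstE7 minus GstE1 and 1.49 to 2.04 for the epsilon class minus GstT3. Centring each array on its median gave 6 pairs higher and 3 lower in the limma fit against 0 and 0, and 3 of 4 transferase pairs past 0.59 in both replicates against 1. At a log2 size of 1, 298 of all pairs passed in both replicates against 1328. With the running median over 50 pairs on each side removed, also chosen after seeing the data, the means of GstE6, GstE7, GstE1 and GstT3 were 1.19, 1.12, 0.62 and -0.91, and GstE6 and GstE1 fell to -0.05 and -0.12 on array 1a. The cause of these changes was not tested. In the limma fit, 4 arrays taken singly or with the replicate as a random block (correlation -0.354) called 0 pairs. Each ratio already sets the cross against the driver on the same array, so no further pairing was used. A gene's probes and missing values gave no alternative, since spots carry no names and every spot has a value. A match tolerance of 0.005 kept a pair for 117 of the 134 genes.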
